A study of Mus musculus with 6 samples.

Results

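The laminin chains measured here were the 9 genes Lama1, Lama2, Lama3, Lama4, Lama5, Lamb1, Lamb2, Lamb3 and Lamc1. All non-control probes whose accession belonged to any of them were taken, which gave 11 of the 55681 probes on the array, with a pair of probes each for Lama2 and Lama3 and a single probe for each of the others. The probes were taken by gene identity, with no threshold on a measured value. RNA was compared between 3 samples of E18.5 fetal mammary cells and 3 of adult basal mammary cells, each a biological replicate hybridized to its own one-color Agilent array, whose spots are brighter the more labelled RNA copy they bind. Both populations came from female C57Bl6J mice, for which the labels name no engineered allele or treatment. The fetal cells were CD31-CD45-Ter119-EpCAM++CD49f+, and the adult cells, from mice of 8 to 12 wk, were CD31-CD45-Ter119-BP-1-EpCAM+CD49f+. The glands were digested overnight for the adult cells and briefly for the fetal cells. Age, sorting gate and digestion time therefore went together and cannot be told apart in any difference below. The labels and the methods name different labelling kits, and all 6 labels name the same one.

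Laminins are large cross-shaped proteins of the basement membrane, the sheet of matrix on which epithelia rest. Each is a trimer of an α, a β and a γ chain, and the chains are separate genes (Lama, Lamb and Lamc) whose combinations differ between tissues. The trimer that holds the Lama3 and Lamb3 products is the laminin of anchoring junctions under stratified and glandular epithelia, where it is held by the integrin made of the Itga6 and Itgb4 products. In the adult mammary gland, basal (myoepithelial) cells are the layer that touches the basement membrane and secretes many of its components.

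The marker genes of the sorted populations were measured first. Of 8 genes of basal mammary cells, 6 were higher in adult basal cells by the call rule given below (Krt5, Acta2, Myh11, Mylk, Cnn1 and Oxtr). Their summed signal was between 752094 and 822514 on the adult arrays and between 52203 and 65567 on the fetal arrays, with Acta2, smooth muscle actin, as the brightest. Krt14 was not called, with a log2 fold change of -1.20. Adult basal replicate 2 lay at 13.39 for Krt14, beside 15.25 and 15.46 on the other adult arrays and 13.36 to 13.78 on the fetal arrays. The probes of Trp63, a transcription factor of basal cells, disagreed: the one with the higher mean signal was not called (-0.08), and the other was called higher in adult basal cells (-3.07, Holm-adjusted limma p of 1.9e-04). Of 8 genes of luminal mammary cells, 5 were higher in fetal cells (Elf5, Kit, Cldn3, Cldn4 and Prom1), while Krt19 ran the other way without overlap (-1.22, Benjamini-Hochberg-adjusted limma p of 4.1e-04; not called with Holm adjustment). The summed signal of that list was between 161971 and 207469 on the fetal arrays and between 109343 and 117843 on the adult arrays. Both populations thus carried signal of both lists. In bulk RNA, fewer cells of a type and less RNA per cell cannot be told apart, and this holds for each chain below.

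Signals are given on the log2 scale after quantile normalization, and a change is the fetal mean minus the adult basal mean, from limma fitted over 20448 probes that matched a gene and passed a filter on low signal. A probe was called where the Holm-adjusted p was at most 0.05 and the change at least 2-fold. Both limits were passed by 2270 probes, or 11.1%, made up of 5.92% with more signal in fetal cells and 5.18% with more in adult basal cells. With 1 array left out, 952 to 2014 probes passed both limits. All 11 laminin probes were tested and 5 of them were called. Of these, 1 was higher in fetal cells (Lama4) and 4 were higher in adult basal cells (Lamb3, both Lama3 probes and 1 Lama2 probe). The Lama2 probe called was the dimmer of its pair and passed the filter through its adult signal alone (mean 6.27). Its fetal mean was 1.99, with 0 fetal arrays well above background. Its change is given below as a bound, and the laminin counts here include it. With Benjamini-Hochberg adjustment in place of Holm, 8 of the 11 passed, beside 30.0% of all probes, and 6 of these were higher in adult basal cells, beside 14.0%. The arrays of the populations did not overlap for 10 of the 11 laminin probes, beside 69.0% of all probes tested. The median log2 fold change of the laminin probes was -1.04, against -0.03 over all tested probes, and their median absolute change was 1.24 against 0.55. At such shares of called probes, the laminin counts in themselves describe 11 probes in a comparison where many genes differ, and the account that follows is of which chains moved which way. Probe brightness depends on the probe as well as the RNA, so levels of different chains are not ranked here.

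**Figure D1:**
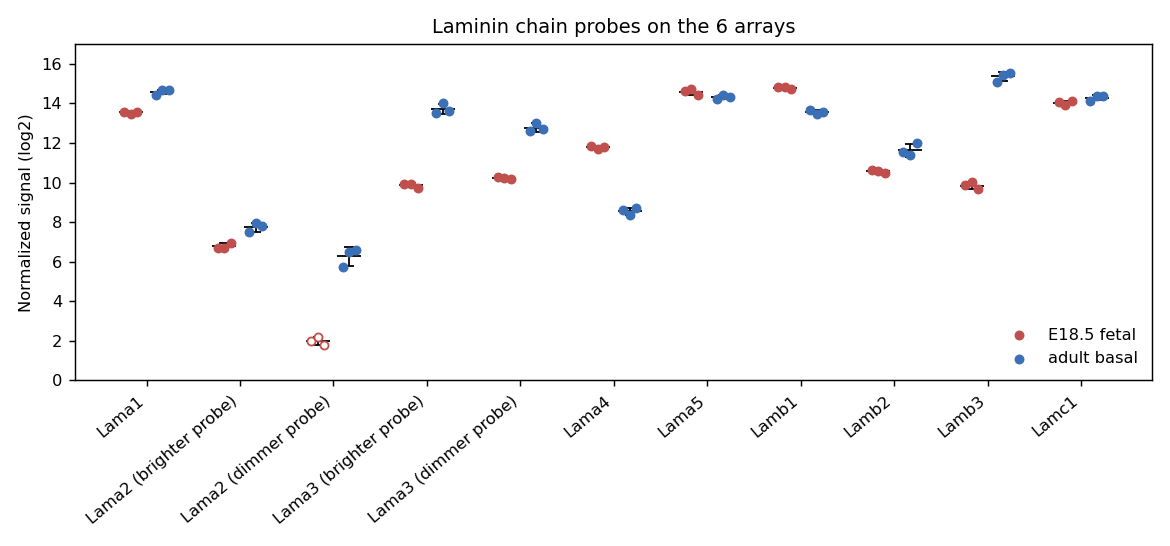
Normalized log2 signal (vertical axis) of the 11 laminin probes on each array, with E18.5 fetal arrays in red and adult basal arrays in blue; dashes are means and bars are SD of 3 arrays. Open circles mark the dimmer Lama2 probe on the fetal arrays, where it did not rise well above background; Lama5 alone has overlapping populations, and Lamb3 and Lama4 show the widest adult-high and fetal-high gaps among probes above background.

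Among the β chains, Lamb3 fell furthest in fetal cells and Lamb1 ran the other way. Lamb3 encodes the β chain found in the anchoring laminin with the Lama3 product. Its signal was 15.09, 15.44 and 15.54 on the adult basal arrays and 9.86, 10.02 and 9.65 on the fetal arrays. All adult arrays lay far above all fetal arrays, with a gap of 5.08 log2 units between the closest arrays of the populations. The fetal mean was 9.84 ± 0.18 (SD, n = 3) and the adult mean 15.36 ± 0.24 (SD, n = 3), a log2 fold change of -5.51 with a 95% interval of -5.88 to -5.15. This is 45.6-fold higher in adult basal cells (interval 35.4 to 58.8), with a Holm-adjusted p of 5.2e-05 by limma. By its p, Lamb3 stood at place 131 of the 20448 probes.

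Lamb1 encodes the β chain of the laminins that are laid down early in development and are widespread in embryonic basement membranes. Its signal was 13.65, 13.47 and 13.54 on the adult basal arrays and 14.84, 14.81 and 14.73 on the fetal arrays. The populations did not overlap and the fetal arrays were higher. Lamb1 changed by a log2 fold of 1.24 (SE 0.10, 95% interval 1.01 to 1.48), or 2.37-fold. The Holm-adjusted p of limma was 0.074, so Lamb1 was not called; with Benjamini-Hochberg adjustment the p was 3.4e-05. Its Holm-adjusted p fell to 0.027 with normexp background correction, 0.0045 with a trended and robust variance and 0.036 with an offset of 16 before log2, so the call depended on these settings.

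Lamb2, the β chain known best from the neuromuscular junction and the kidney glomerulus, had a signal of 11.54, 11.37 and 12.01 on the adult basal arrays and 10.62, 10.59 and 10.50 on the fetal arrays. The adult arrays were higher without overlap, and they were more spread than the fetal ones. Its log2 fold change was -1.07 (SE 0.17, 95% interval -1.47 to -0.67), with a limma p of 1 after Holm and 0.0011 after Benjamini-Hochberg adjustment, and it was not called.

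The unequal change of the β chains was compared within arrays, where the difference between a pair of probes is free of the array's overall brightness. The Lamb3 minus Lamb1 difference was 1.80 ± 0.32 (SD, n = 3) on the adult basal arrays and -4.95 ± 0.14 (SD, n = 3) on the fetal arrays, a shift of -6.76 log2 units, or 108-fold. For Lamb3 minus Lamb2 the shift was -4.44. For Lamb1 minus Lamb2 it was 2.32, toward Lamb1 in fetal cells. None of these differences overlapped between the populations. In all, 8 such pairs were compared across the chains, and each gave an exact two-sided permutation p of 0.1, which is the smallest that 3 arrays against 3 allow (0.1 after Benjamini-Hochberg adjustment over the pairs).

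For the pair of β chains that moved in opposite directions, the 250 bases before the RefSeq transcription start are shown (GRCm38.p6, plus strand, 5′ to 3′, chr1:193301744-193301993 for the upstream of the Lamb3 starts listed and chr12:31265043-31265292 for Lamb1). Capitals mark the letters GGGCGG read on either strand, the core of the GC box, and the rest is in lower case.
Lamb3: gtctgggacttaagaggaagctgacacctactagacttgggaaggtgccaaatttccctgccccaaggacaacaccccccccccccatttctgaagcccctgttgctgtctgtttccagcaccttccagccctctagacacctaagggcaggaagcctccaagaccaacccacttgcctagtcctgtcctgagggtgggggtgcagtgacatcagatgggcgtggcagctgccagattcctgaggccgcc
Lamb1: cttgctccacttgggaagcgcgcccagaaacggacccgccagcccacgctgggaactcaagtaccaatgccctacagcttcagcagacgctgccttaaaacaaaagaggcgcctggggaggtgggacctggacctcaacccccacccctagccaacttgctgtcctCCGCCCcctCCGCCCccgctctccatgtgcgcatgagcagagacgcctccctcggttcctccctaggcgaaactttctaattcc
The Lamb1 window held 2 GGGCGG matches and 14 CpG dinucleotides (GC content 62.0%), and the Lamb3 window held 0 matches and 2 CpG (58.8%). Over 32851 RefSeq promoter windows of the same 250 bases, 32.7% held GGGCGG on either strand, and the median was 6 CpG with quartiles of 2 and 16. Neither window held TATAAA, found in 12.4% of all windows, nor TGANTCA, the letters of the AP-1 element, found in 6.75%, both read on either strand. Windows of 5 of the 9 genes are described here. The upstream windows of Lama5 (19 CpG), Lamb2 (3 CpG) and Lama2 (0 CpG) are not printed. Nor is that of the downstream Lamb3 start, which held 0 GGGCGG matches and 3 CpG (GC content 61.2%). A match of letters is only a description of the window.

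Among the α chains, the strongest changes of probes well above background were those of Lama3 and Lama4. Lama3 encodes the α chain of the anchoring laminin. Its brighter probe gave 13.53, 14.01 and 13.62 on the adult basal arrays and 9.94, 9.93 and 9.74 on the fetal arrays, again with all adult arrays well above all fetal ones. The log2 fold change was -3.85 (SE 0.15, 95% interval -4.20 to -3.49), which is 14.4-fold higher in adult basal cells, with a Holm-adjusted limma p of 5.2e-04. The dimmer Lama3 probe gave 12.58, 13.02 and 12.70 on the adult arrays and 10.28, 10.25 and 10.20 on the fetal arrays. It moved in the same direction by less, with a log2 fold change of -2.52 (SE 0.13, 95% interval -2.84 to -2.21) and a Holm-adjusted limma p of 0.0041. The change in the within-array difference between the probes was 1.32 (2.50-fold). The array gives the same transcript for both probes, so the sources used here do not separate transcript forms of Lama3. The call of the dimmer probe was lost when any 1 of the fetal arrays was left out, with Holm-adjusted p of 0.084, 0.08 and 0.07 without replicates 1, 2 and 3, while its change stayed between -2.54 and -2.50.

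Lama4 ran opposite to Lama3. Lama4 encodes an α chain typical of blood vessels, fat, muscle and nerve. Its signal was 8.59, 8.34 and 8.71 on the adult basal arrays and 11.84, 11.70 and 11.79 on the fetal arrays. The fetal arrays lay together, 2.99 log2 units or more above every adult array. The log2 fold change was 3.23 (SE 0.12, 95% interval 2.94 to 3.53), or 9.40-fold higher in fetal cells, with a Holm-adjusted limma p of 4.6e-04. The Lama3 minus Lama4 difference shifted by -7.08 log2 units between the populations, from 5.18 ± 0.43 (SD, n = 3) in adult basal cells to -1.90 ± 0.14 (SD, n = 3) in fetal cells.

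Because Lama4 is also a vascular chain and CD31 was used to remove endothelium, the vascular markers are given beside it. Of 8 endothelial genes 6 were tested and 0 were called by limma in either direction. With Benjamini-Hochberg adjustment, 4 were higher in adult basal cells and 0 in fetal cells, beside 14.0% of all probes in the former direction. The 4 were Cdh5 (-2.70), Esam (-3.77), Emcn (-1.79) and Cldn5 (-1.40). The counts were the same at an unadjusted limma p under 0.05. Many probes reach that limit: Krt14, with an unadjusted limma p of 0.0499, stood at place 13225 of the 20448 probes. This scale holds for the other unadjusted counts below. The summed endothelial signal was between 10855 and 12647 on the fetal arrays and between 11552 and 13979 on the adult arrays. Kdr made up 91.8% of it by its brighter probe, which changed by -0.04. The other Kdr probe was dimmer, with means of 6.20 on the fetal and 6.87 on the adult arrays. No fetal array had the defining genes Tek and Tie1 well above background. Pecam1, which encodes CD31, changed by -0.14. Of 6 mural cell genes 5 were tested. Notch3 was called higher in fetal cells (4.70) and Pdgfrb higher in adult basal cells (-4.34), and Rgs5 changed by -2.22. The summed mural signal was between 6890 and 7966 on the fetal arrays and between 1235 and 1514 on the adult arrays. Notch3, which luminal mammary cells also express, made up 82.4% of it over all arrays together. It was the brightest on the fetal arrays (mean 12.76). On the adult arrays Pdgfrb was the brightest (mean 9.31, beside 8.06 for Notch3). For Schwann cells, 4 of 6 genes were tested and 0 were called, with a median change of 0.03 and Sox10 as the brightest; 1 had an unadjusted limma p under 0.05. For adipocytes, 6 of 6 were tested and 0 were called, with 1 gene in each direction at an unadjusted limma p under 0.05. The fetal arrays summed to 1292, 1155 and 2788 over the adipocyte list and the adult arrays to 2264, 2136 and 2809. Plin1 was the brightest on fetal replicates 1 and 2, and Fabp4 on the other arrays. Adipoq, a defining gene, gave 5.62, 3.99 and 8.17 on the fetal arrays, and the dimmer probe of Cidec, a lipid droplet gene, gave 5.06, 2.35 and 7.23; no adult array had either probe well above background. Fetal replicate 3 was the highest for both. Lama4 lay at 11.79 on that array, between the other fetal arrays. The part of vascular, nerve or fat cells in the Lama4 difference was not tested. For leukocytes, which the CD45 gate removes, 7 of 8 were tested and 0 were called. At an unadjusted limma p under 0.05, 2 were higher in adult basal cells. The count was also 2 with Benjamini-Hochberg adjustment, beside 14.0% of all probes, and Csf1r made up 62.9% of the signal.

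Lama1 encodes the α chain of the first laminin of the embryo and of Matrigel. Its signal was 14.44, 14.65 and 14.65 on the adult basal arrays and 13.55, 13.47 and 13.58 on the fetal arrays. The adult arrays were higher and the populations did not overlap. The log2 fold change was -1.04 (SE 0.11, 95% interval -1.29 to -0.80). With a Holm-adjusted limma p of 0.33 it was not called, and with Benjamini-Hochberg adjustment the p was 1.1e-04. With a trended and robust variance the Holm-adjusted p was 0.032.

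Lama5, the α chain most widespread in adult epithelial basement membranes, had the smallest change of the α chains. Its signal was 14.20, 14.43 and 14.30 on the adult basal arrays and 14.64, 14.71 and 14.42 on the fetal arrays. It was the 1 laminin probe with overlapping populations. Its log2 fold change was 0.28 (SE 0.12, 95% interval -0.00 to 0.56), and the limma p was 0.08 after Benjamini-Hochberg and 1 after Holm adjustment. The interval places any change at 0.56 log2 units or less. The within-array difference of Lama1 and Lama5 shifted by -1.32 and that of Lama3 and Lama5 by -4.13, without overlap and at the smallest p the design allows.

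Lama2, the α chain of muscle and nerve basement membranes, was dim. The brighter probe gave 7.50, 7.95 and 7.78 on the adult basal arrays and 6.71, 6.71 and 6.94 on the fetal arrays. It was higher in adult basal cells without overlap, by a log2 fold change of -0.96 (SE 0.14, 95% interval -1.29 to -0.62), and was not called (limma p of 1 after Holm and 8.3e-04 after Benjamini-Hochberg adjustment). The dimmer probe gave 5.73, 6.49 and 6.59 on the adult arrays and 1.97, 2.19 and 1.81 on the fetal arrays, where no array had it well above background. Its change is therefore given as a bound, which holds for the main processing. It was 5.64-fold higher in adult basal cells, taking for each fetal array the dimmest signal that was well above background. That level served as a reference and is not a detection limit, so the bound is approximate. The probe passed the low-signal filter through its adult signal alone. Its Holm-adjusted limma p of 0.006 is that of the fitted change, which rests on fetal signal not well above background, and not that of the bound. The fitted change of this probe was -4.28, and it became -2.23 with the offset of 16 and -1.04, with a Holm-adjusted limma p of 0.39, after normexp background correction, both nearer 0 than the bound. The limma call was also lost without the low-signal filter (Holm-adjusted p = 0.065) and without any 1 of the fetal arrays (p between 0.063 and 0.12 after Holm adjustment by limma). No within-array shift is given for the pair of Lama2 probes, since the dimmer one has only a bound. The size of the Lama2 difference was thus not settled by these arrays, while its direction was the same in each of these fits.

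Markers of fibroblasts are given beside Lama2. Of 9 fibroblast genes, 8 were tested and 1, Dcn, was called higher in adult basal cells (-3.78); 7 of the 8 had no overlap and more signal in adult basal cells, beside 69.0% of all probes without overlap in either direction. Their summed signal was between 17551 and 28115 on the adult arrays and between 6275 and 7924 on the fetal arrays. Dcn was the brightest on each adult array and Col1a2 on each fetal array, and no fetal array had Dpt well above background. Of 6 skeletal muscle genes 4 were tested, and Acta1 alone was called (higher in adult basal cells), making up 97.8% of that list's signal over all arrays together. With Benjamini-Hochberg adjustment 2 were higher in adult basal cells and 0 in fetal cells, beside 14.0% of all probes in the former direction. These were Acta1 and Myh8, which changed by -1.12 on its tested probe (Benjamini-Hochberg-adjusted limma p of 0.0025). The probes of Myh3, embryonic myosin, were dim, did not pass the low-signal filter and ran the other way: the first gave 5.03, 4.66 and 5.06 on the fetal arrays and was not well above background in adult basal cells, and the second had means of 5.18 in fetal and 4.67 in adult basal cells. Both sorts required EpCAM, an epithelial surface protein, and the adult sort also removed BP-1+ cells, which the methods count as stromal. The part of such cells in the Lama2 difference was not tested.

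The γ chain Lamc1, a partner in most laminins, differed little. Its signal was 14.13, 14.38 and 14.35 on the adult basal arrays and 14.09, 13.93 and 14.12 on the fetal arrays, which were separated by 0.01 log2 units. The log2 fold change was -0.24 (SE 0.12, 95% interval -0.51 to 0.03), with a limma p of 0.11 after Benjamini-Hochberg adjustment.

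**Figure D2:**
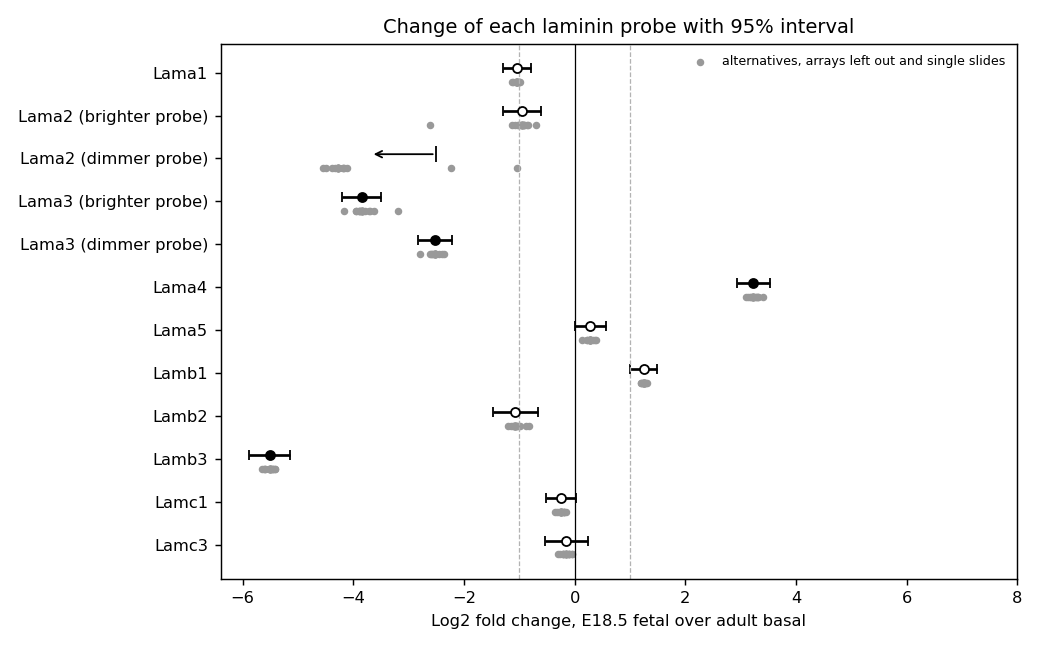
Log2 fold change of fetal over adult basal cells (horizontal axis) with 95% interval for the 11 laminin probes and for Lamc3; filled points were called, dashed lines mark 2-fold, and the arrow starts at the bound for the dimmer Lama2 probe. Grey dots give the fitted change under other processing, with arrays left out and within single slides; Lamb3 stays between -5.65 and -5.42 over the 17 refits on both slides, and the dots of the dimmer Lama2 probe reach -1.04.

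Lamc3, another γ chain gene, was dim on all arrays and changed by -0.15 (95% interval -0.54 to 0.23).

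**Figure D3:**
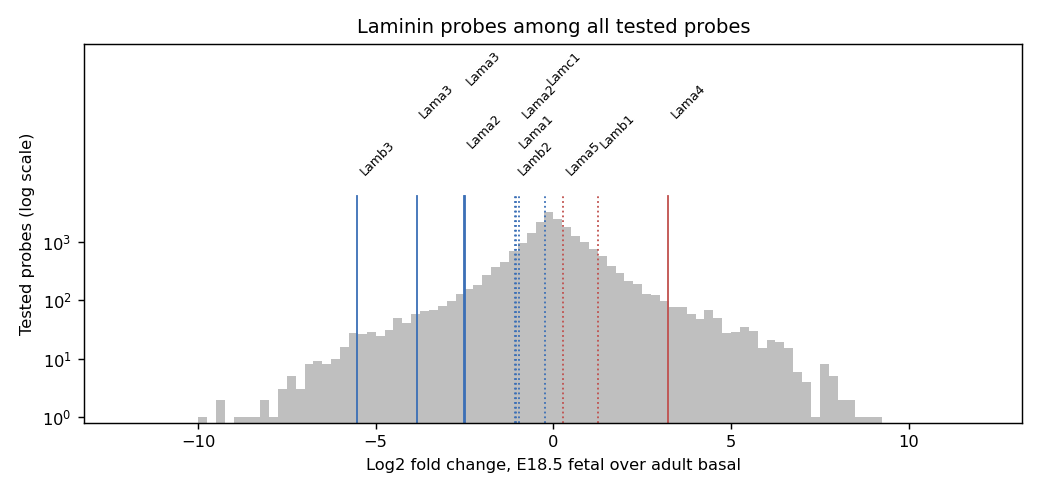
Number of tested probes (vertical log axis) by log2 fold change of fetal over adult basal cells (horizontal axis) for all 20448 probes in grey. Lines mark the laminin probes, blue for higher in adult basal and red for higher in fetal cells, solid where called and dotted where not, with the dimmer Lama2 probe drawn at its bound; Lamb3 at -5.51 lies well out in the left tail and Lama4 at 3.23 in the right.

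The genes most like the strongest member in each direction were taken as the 3 probes of other genes whose signal followed it most closely over the 6 arrays after removal of each probe's mean, among 19770 probes well above background on all arrays. For Lamb3 these were Ehbp1l1, with a root mean square difference of 0.058 log2 units, and both probes of Slc6a9, a glycine transporter gene (0.119 for each). For Lama4 they were Mcm4, a subunit of the replicative helicase (0.028), Poc1a, a centriole gene (0.104), and Nasp, a histone chaperone gene (0.108). The likeness rests mostly on the difference between the populations, which all 6 arrays share.

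Of 7 laminin receptor genes tested, Itga7 was called, higher in adult basal cells, beside 5.18% of all probes called in that direction. In the other direction 0 were called (0 also at an unadjusted limma p under 0.05). With Benjamini-Hochberg adjustment 5 were higher in adult basal cells, beside 14.0% of all probes, and the arrays of 6 did not overlap, beside 69.0%. Their median log2 fold change was -1.28. Itga7, the laminin-binding integrin chain of muscle cells, gave 10.63, 9.99 and 10.50 on the adult arrays and 7.17, 7.28 and 6.92 on the fetal arrays, a change of -3.25 (SE 0.19, Holm-adjusted limma p of 0.0077). This limma call was lost under the replicate block (Holm-adjusted p of 0.066), without the low-signal filter (0.076) and in 5 of 6 fits with 1 array left out, those without adult basal replicates 1 and 3 and without any fetal array, with Holm-adjusted p between 0.06 and 0.14. Bcam, the Lutheran receptor for the Lama5 product, changed by -2.30 and Itga3 by -2.01, and neither was called, with Holm-adjusted limma p of 0.19 and 0.097. Without adult basal replicate 2, the lowest of its group for Bcam, Bcam was called (-2.55, Holm-adjusted p of 0.0038). Itga3 was called by limma, with Holm adjustment, after normexp correction (adjusted p of 0.019), with a trended and robust variance (0.01) and with the offset (0.041). Itgb4 changed by -1.28, Dag1, which encodes dystroglycan, by -1.01, and Itgb1 by -0.96. Itga6, which encodes the CD49f used to sort both populations, changed by 0.01 (95% interval -0.30 to 0.33).

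Genes of the hemidesmosome, the junction that ties keratin filaments to the anchoring laminin, included 2 of 7 that were called, both higher in adult basal cells. Over all probes, 5.18% were called in that direction. Dst, which encodes the linker BPAG1, gave 12.19, 12.37 and 12.53 on the adult arrays and 8.86, 8.53 and 8.37 on the fetal arrays. Its change was -3.78 (SE 0.16, Holm-adjusted limma p of 8.1e-04), and its other probe changed by -3.36. Col17a1, a transmembrane collagen of the junction, gave 13.19, 13.32 and 13.17 on the adult arrays and 10.68, 10.75 and 10.70 on the fetal arrays. Its change was -2.51 (SE 0.10, Holm-adjusted limma p of 4.5e-04). Both genes were called in each of the alternatives run. Of the others, Cd151, a tetraspanin partner of laminin-binding integrins, changed by -1.36, the linker Plec by -0.83 and the anchoring fibril collagen Col7a1 by -0.22, and these were not called. Itga6 and Itgb4, given above, belong to this list as well. With Benjamini-Hochberg adjustment 4 of the 7 were higher in adult basal cells, beside 14.0% of all probes, and the arrays of 5 did not overlap, a share near the 69.0% of all probes.

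Among 13 other basement membrane genes, 12 were tested and 2 were called, both higher in adult basal cells, beside 5.18% of all probes. Hspg2, which encodes perlecan, changed by -1.62 (SE 0.10, Holm-adjusted limma p of 0.01), and its other probe by -1.71. Col4a2 changed by -2.13 (SE 0.14, Holm-adjusted limma p of 0.02), and Col4a1, its partner in type IV collagen, by -1.44 (Holm-adjusted limma p of 0.052, with a call under 5 of 17 alternatives). The Hspg2 call was lost without adult basal replicates 1 or 3 or any fetal array (Holm-adjusted p between 0.054 and 0.20), and the Col4a2 call without the same arrays (0.093 to 0.23); Col4a2 was also lost with unmatched probes included (0.051), and both were lost without the low-signal filter (0.061 and 0.15) and with the replicate block (0.23 and 0.058) or the slide (0.08 and 0.067) in the fit. Nid1, the nidogen that links laminin to type IV collagen, changed by -1.12 on its brightest probe and by -0.15 on another tested probe, and Nid2 by 0.27. Agrn changed by 0.13. The Col4a6 probes disagreed, at 0.43 and -1.48, and the first rested on adult basal replicate 2, which lay at 11.92 beside 13.38 and 13.18.

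Ntn4, a netrin that binds laminin γ chains, gave 9.02, 8.55 and 8.72 on the adult arrays while none of the fetal arrays had it well above background. It passed the low-signal filter through its adult signal alone. By the approximate bound described for Lama2 it was 31.1-fold higher in adult basal cells, which holds for the main processing. The fitted log2 change was -6.28 there, -4.29 with the offset and -2.80 after normexp correction, and the last 2 lie nearer 0 than the bound. Its Holm-adjusted limma p was 0.25, so it was not called; it was called after normexp correction (Holm-adjusted p of 7.6e-04), with the offset (0.0015) and without fetal replicate 2 (1.8e-04), which lay at 4.08, above the other fetal arrays. With Benjamini-Hochberg adjustment 5 of the 12 basement membrane genes were higher in adult basal cells and 0 in fetal cells, beside 14.0% of all probes in the former direction. The arrays of 8 did not overlap, a share near the 69.0% of all probes. Both counts include Ntn4, which was tested through its adult signal alone. The fibroblast signal given beside Lama2 was also higher on the adult arrays, and its part in these differences was not tested.

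**Figure D4:**
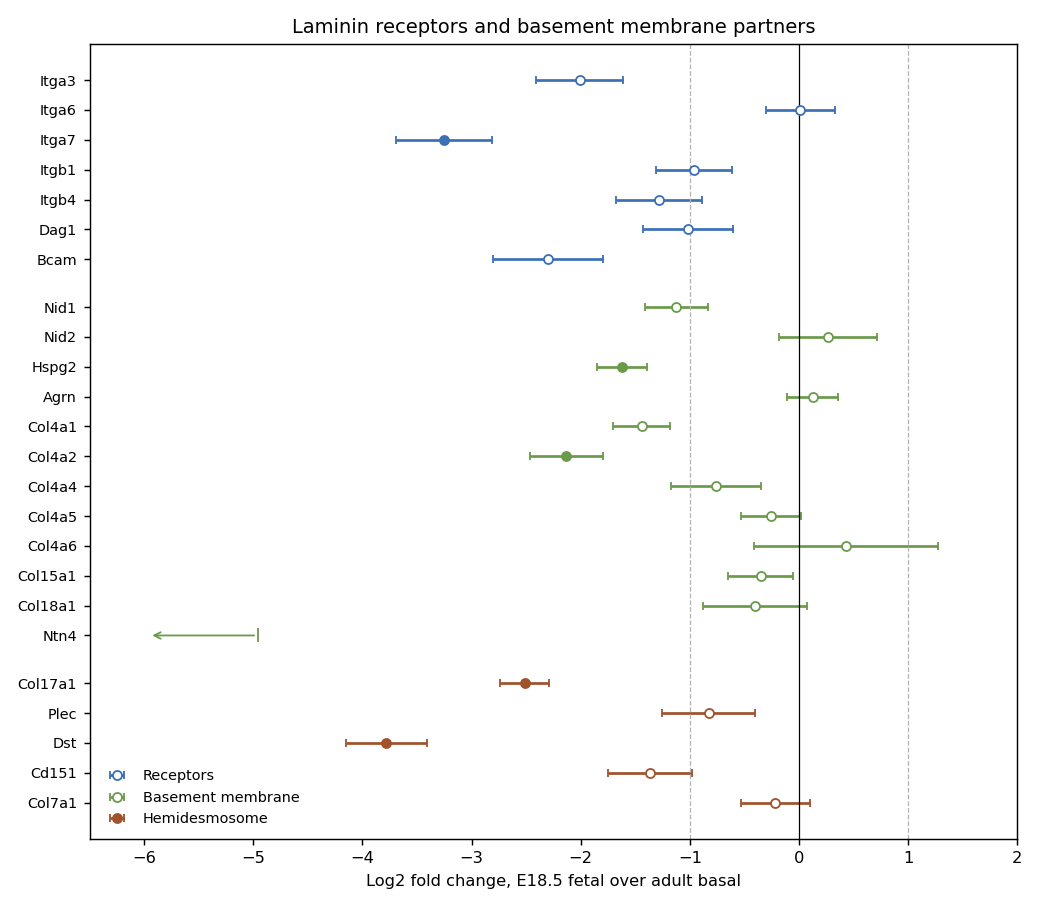
Log2 fold change of fetal over adult basal cells (horizontal axis) with 95% interval for the brightest tested probe of each receptor, basement membrane and hemidesmosome gene; filled points were called, dashed lines mark 2-fold, and the arrow starts at the bound for Ntn4. Called genes (Itga7, Hspg2, Col4a2, Col17a1 and Dst) all lie to the left of 0, while Itga6 lies at 0.01.

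Dystroglycan binds laminin through a sugar chain built by a set of glycosyltransferases. Pomt1, which adds the first sugar of the chain, changed by 0.95 toward fetal cells (95% interval 0.57 to 1.33), and Pomt2, its partner, by -0.51 (95% interval -0.77 to -0.24). Neither was called, with a Holm-adjusted limma p of 1 for each.

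The arrays lay on a pair of slides, with 1 fetal and 2 adult arrays on slide 1 and 2 fetal and 1 adult array on slide 2, so the changes could be read within each slide. Lamb3 changed by -5.46 on slide 1 and by -5.60 on slide 2. Lama4 changed by 3.19 and 3.41, and Lamb1 by 1.25 and 1.30. The brighter Lama3 probe changed by -3.63 and -4.18, and the dimmer by -2.36 and -2.79. Lama1 changed by -0.99 and -1.13 and Lamb2 by -1.15 and -0.83. Lama5 changed by 0.39 and 0.14 and Lamc1 by -0.15 and -0.35. No laminin probe changed direction between the slides.

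By their median SD, the laminin probes were also more uniform among fetal than among adult arrays. It was 0.10 log2 units over the 3 fetal arrays and 0.23 over the 3 adult arrays. Over all tested probes it was 0.12 and 0.18, a difference in the same direction. Lama5 ran the other way, with an SD of 0.15 in fetal and 0.11 in adult basal cells. The difference in median SD was not tested.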

How the data were processed

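The deposited intensity values are Agilent Feature Extraction 11.0.1.1 processed signals, which the authors left linear and without normalization between arrays; the authors also deposited a quantile-normalized log2 table. Control and outlier spots (104 to 326 an array) were dropped, spots of a probe averaged as log2, and the arrays quantile normalized. Accessions were matched to RefSeq genes of GRCm38.p6 (27235 probes, 20660 genes; the array design names another assembly). The filter dropped probes that in both populations lay below 5.95, where the lowest of 3 k-means clusters (100 starts) met the next, and left 20448. Differences were fitted with limma 3.58.1 in R 4.3.3 (2-sided), and the fit was tested on simulated data. Tables used Python 3.11.15. No spot was saturated, and 76.4% to 83.3% of probes were well above background; the number of arrays limits the precision. All probes of each member are given; the brightest stands for a gene in a list. Members and lists were chosen with earlier results of these data known, and the counts for related lists after their values were seen. Of the alternatives in the closing section, normexp (offset 50) was planned on mean spot intensity and run on the median. Replicate numbers in the labels did not pair arrays. Some genes of the lists chosen are not reported here.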

Additional observations from a re-analysis of the deposited data

How the results depend on the processing

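The laminin probes kept their direction under every alternative run: 75th percentile normalization, the deposited log2 table, normexp, no low-signal filter, a filter on well above background, all probes, Benjamini-Hochberg adjustment, a trended and robust variance, an offset of 16, each array left out, the replicate block, slide as a block and averaging a gene's probes. Lamb3, Lama4 and the brighter Lama3 probe were called under each of these except averaging, which changes nothing for genes with 1 tested probe and gave a called value for Lama3 as a gene (-3.19). The laminin probes called higher in fetal cells numbered 1 in the main analysis and 2 under normexp, Benjamini-Hochberg adjustment, the trended and robust variance and the offset of 16. Those called higher in adult basal cells numbered 4 in the main analysis, with the dimmer Lama2 probe among them. They were 6 with Benjamini-Hochberg adjustment and 5 with the trended and robust variance. They were 3 under normexp and without the filter. With a gene's probes averaged the count was of genes, also 3, with Lama2 among them. With 1 array left out they were 2 to 4, the 2 being without any 1 of the fetal replicates. Over all probes 2270 were called, 1182 without the filter, 6133 with Benjamini-Hochberg adjustment and 952 to 2014 with 1 array left out; fewer arrays and more tests lower the Holm count by construction. With the replicate block 1302 were called. The deviations of same-numbered arrays correlated by -0.03, 0.09 and 0.05, so the numbers name the arrays only; the block ended no laminin call. Changes of Agrn to -0.0224 and Col4a6 to -0.524 when a gene's probes were averaged, of Itga6 to -0.0093 under normexp, and of Col4a6 (-0.0225 to 0.707) and Itga6 (-0.0836 to 0.135) with 1 array left out turned direction; none of these was called, and the cause was not tested. Signal over background limits the dimmer Lama2 probe and Ntn4 in fetal cells to bounds.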
